A study of Ovis aries with 18 samples.

Results

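Whole blood of sheep was exposed to 2 related stimuli of the receptor TLR4, and the transcripts after monophosphoryl lipid A (MPLA) were set directly against those after lipopolysaccharide (LPS) in the same animals. The comparison used 12 of the 18 arrays of the series, 6 after LPS and 6 after MPLA, chosen by the treatment in their titles and paired by the animal named there. The 6 animals, 71Y, 51Y, 20, 170, 80 and 65Y, were healthy adult females of about 3 years. Heparinised blood was kept for 90 minutes with 1 µg of LPS or 10 µg of MPLA, amounts that the methods state per millilitre. Another portion of each animal's blood received phosphate-buffered saline (PBS), the control that gives the background level below. Agonist and amount changed together, so their effects on any difference cannot be told apart. Each array came from 1 blood portion of 1 animal.

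TLR4, with its partner MD-2, binds the lipid A part of LPS, the outer-membrane glycolipid of Gram-negative bacteria. The receptor signals through the adaptor MyD88, which drives early NF-kappaB genes such as cytokines and chemokines, and through the adaptor TRIF, which drives interferon-linked genes. MPLA is lipid A that lacks a phosphate group, and it is used as a vaccine adjuvant because it is less inflammatory than LPS. Monocytes and neutrophils are the main blood cells that respond to these agonists.

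The arrays were 1-colour Agilent sheep arrays, and every level below is log2 of a probe's signal relative to the 75th percentile of its array. Differences are MPLA minus LPS within an animal, on the same log2 scale, where 1 unit is 2-fold. A probe was tested when it was well above background on all 6 arrays of either agonist, which left 4099 of 15008 probes, and 444 of them carried 1 of 377 gene symbols. Between 28.5% and 39.4% of probes were well above background on the 12 arrays. No spot was saturated. The label of whole blood was met by part of the listed markers. Tested were the haemoglobin gene HBB (1 of 2 erythroid genes on the array), CD3D and CD3E (2 of 7 T cell genes), the cytotoxic granule gene GNLY, and CD14 and LYZ (2 of 3 monocyte genes). The T cell gene CD4 and the monocyte gene FCGR1A were well above background on 0 of the 12 arrays. No listed gene of B cells (1 on the array) or neutrophils (2 on the array) was tested, and no listed platelet gene was on the array under a symbol.

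The 6 pairs of arrays were not alike. Over all tested probes, the median difference was -0.30 in animal 71Y, -0.22 in 51Y, -0.30 in 80 and -0.28 in 65Y, but 0.23 in animal 20 and 0.29 in animal 170. The share of all probes well above background moved the other way in each animal: it was higher after MPLA by 0.866 percentage points in 71Y, 8.28 in 51Y, 1.39 in 80 and 5.37 in 65Y, and lower by 4.07 in animal 20 (-4.07) and 5.10 in animal 170 (-5.10). Under a 75th percentile taken over probes detected on all 12 arrays, the same medians lay between -0.14 and 0.07. Across the 4009 tested probes with a value on every array, the differences of animal 20 correlated at -0.64 with the mean of the other 5 animals, and those of animal 170 at -0.14. The corresponding values of the 4 remaining animals lay between 0.44 and 0.59. These correlations are across probes, which are not independent and share their array's scaling. In animal 170 the LPS and MPLA arrays also lay on different slides. The titles were used as given. Whether those of the 2 arrays of animal 20 are right was not tested, and an exchange of the pair would turn the sign of each difference of that animal. The part of array brightness in single results was not tested, so the values without animal 20 or 170, or with the share of detected probes as a covariate, are given where they matter.

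**Figure D1:**
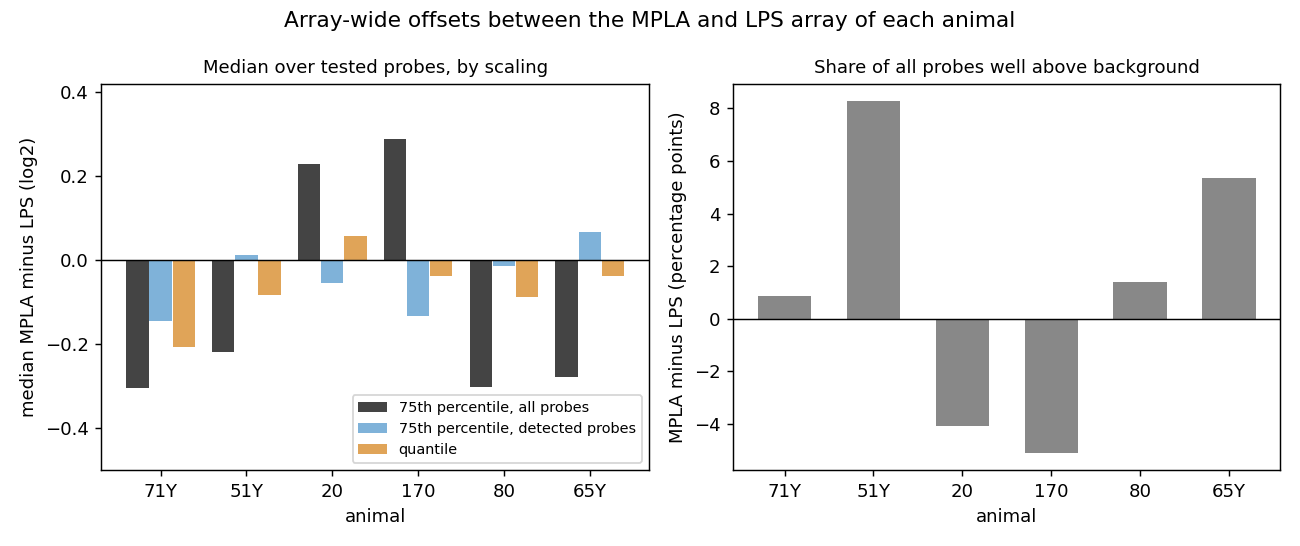
Left, the median MPLA minus LPS difference (log2) over the tested probes in each animal under 3 scalings. Right, the MPLA minus LPS difference in the share of all probes well above background (percentage points), which is positive in 4 animals and negative in animals 20 and 170, opposite in sign to the dark bars on the left.

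Few transcripts separated the agonists, and both that passed the test were lower after MPLA. Of 4099 tested probes, 2 were called by limma at an adjusted p under 0.05 (0.0488% of those tested), none of them higher after MPLA. At an unadjusted p under 0.05, 137 probes were lower (3.34%) and 57 were higher (1.39%) after MPLA. This total of 194 hung on single animals: it was 970 without animal 20, 449 without animal 170 and 81 to 106 without one of the others. The sample size and the spread of the differences between animals limit what could be seen: in the median probe the unadjusted 95% interval of the difference reached 0.49 log2 units, or 1.40-fold, to either side. The interval lay within 2-fold in both directions for 3497 probes (85.3%) and within 1.5-fold for 1283 probes (31.3%). For those 3497 probes a difference beyond 2-fold lies outside the interval, while a missed threshold does not show that the agonists acted alike.

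The clearest difference was in probe A_70_P031861, which carries the expressed-sequence identifier EE757003 and has no gene symbol. Its level after PBS ran from 4.14 to 5.18 with a median of 4.58. After LPS it ran from 3.96 to 5.49 with a median of 4.57. After MPLA it ran from 2.69 to 4.07 with a median of 3.20. The LPS and PBS arrays covered much the same range, while every animal was lower after MPLA than after either, although the lowest LPS array lay below the highest MPLA array. The difference was -1.38 in 71Y, -1.27 in 51Y, -1.43 in 20, -1.47 in 170, -1.62 in 80 and -1.36 in 65Y. Its mean was -1.42 (95% interval -1.77 to -1.07), or 2.68-fold lower after MPLA, with a limma adjusted p of 0.015. Without animal 20 it was -1.42 (limma adjusted p = 0.0274), and with the share of detected probes as a covariate it was -1.44 (limma adjusted p = 0.00990).

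The other called probe, A_70_P015971 (XM_004005471, a RefSeq model that matched no symbol), was lower after MPLA by a similar amount. Its PBS levels ran from 3.30 to 5.59 with a median of 4.14. Its LPS levels ran from 4.43 to 6.001 with a median of 4.68. Its MPLA levels ran from 3.10 to 4.87 with a median of 3.21. The ranges overlapped because animal 20 was the highest on both arrays, but within an animal the MPLA array was always the lower one, by between -0.99 and -1.72. The mean difference was -1.33 (95% interval -1.71 to -0.95), or 2.51-fold lower after MPLA, with a limma adjusted p of 0.0302. Leaving out any one of 71Y, 51Y, 80 and 65Y kept the differences of both probes between -1.45 and -1.25 but ended both calls, with limma adjusted p from 0.109 to 0.220, whereas both calls held without animal 20 or 170. Both calls were also lost under median scaling, under normexp background correction (-0.77 for A_70_P031861 and -0.72 for A_70_P015971), with no filter and in the unpaired fit. Normexp was run on the median spot signal with an added offset of 50. The 75th percentile of processed signal on the 12 arrays ran from 28.5 to 111, so this offset is large beside most signals. The call of A_70_P015971 was lost as well with a filter of 4 of 6 arrays (limma adjusted p = 0.0778) and with all 18 arrays in the fit (limma adjusted p = 0.127). The direction stayed lower under all of these settings.

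**Figure D2:**
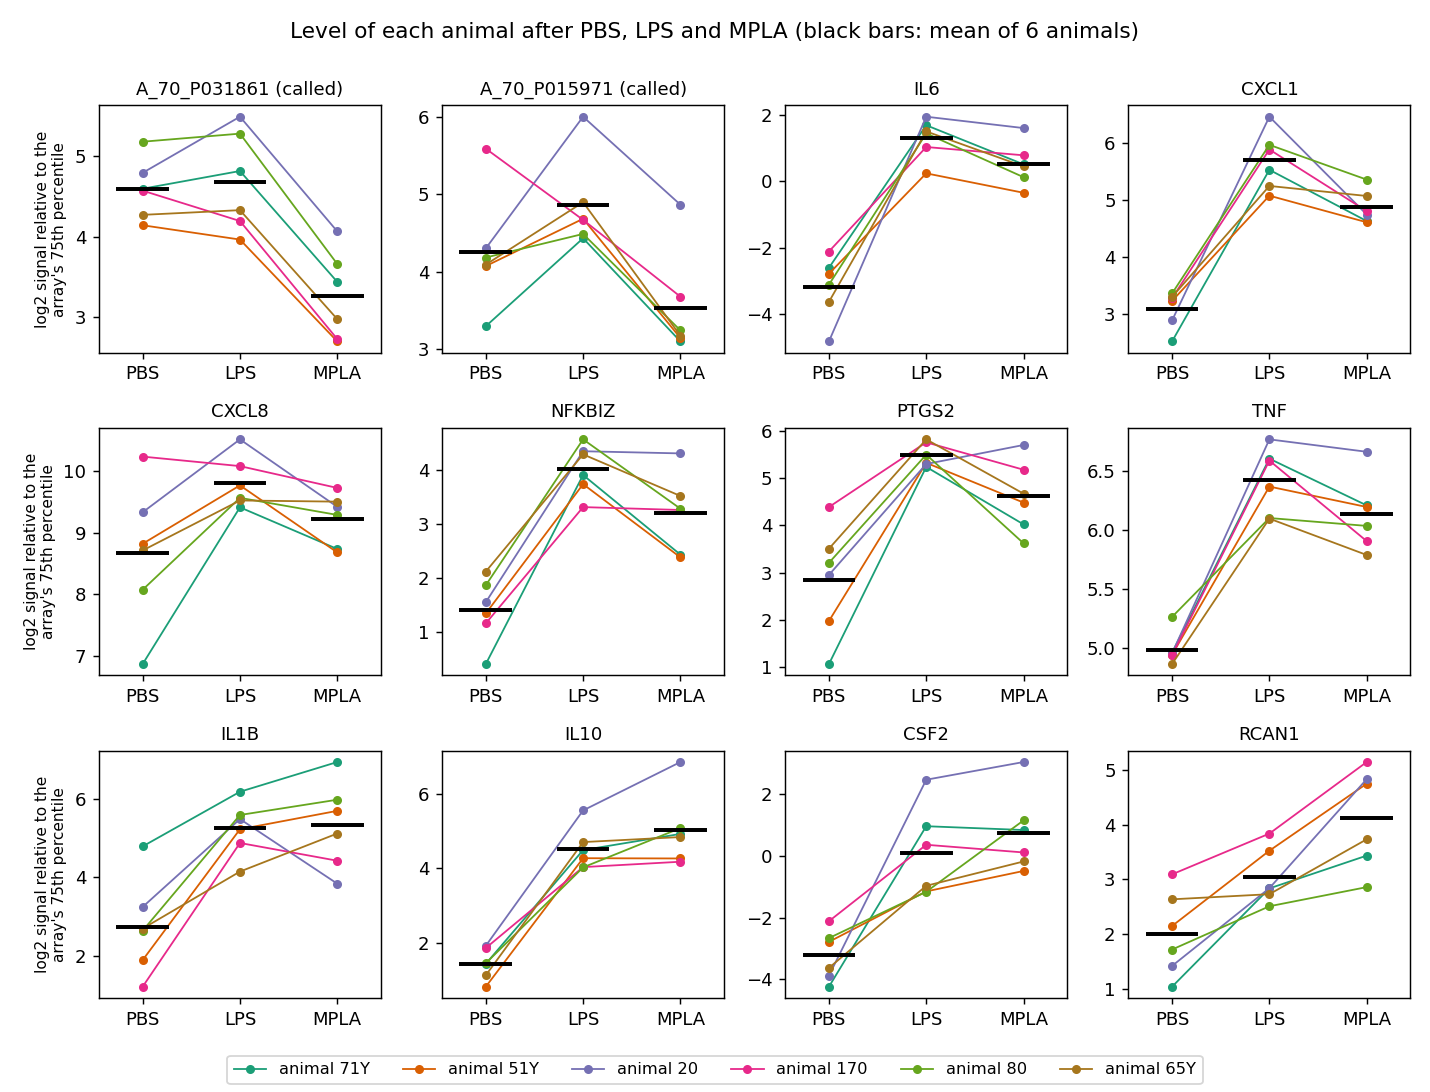
Level (log2 signal relative to the array's 75th percentile) of 12 probes in each of the 6 animals after PBS, LPS and MPLA, with 1 line per animal and black bars for the mean. In the first 2 panels every line falls from LPS to MPLA, while IL10 and RCAN1 lie higher after MPLA in most animals and IL1B differs in direction between animals.

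The probes ranked next among the lower ones had no symbol and missed the threshold, although they were lower in nearly every animal. A_70_P031646 (EE794109) had a difference of -1.07 (95% interval -1.43 to -0.71, limma adjusted p = 0.0785), with single animals between -0.79 and -1.27. It passed under 5 of 21 alternatives, among them the fit without animal 20 (limma adjusted p = 0.0323). Over all tested probes, the LPS and MPLA arrays did not overlap in 3 that were lower (0.0732%) and in 0 that were higher (0%) after MPLA. A_70_P017136 (EE777495) is one of these: its LPS levels began at 2.09 and its MPLA levels ended at 2.08, with a difference of -1.22 (limma adjusted p = 0.121). A_70_P009776 (EE851707), named here only for this property after its values were seen, had a difference of -0.96 (limma adjusted p = 0.766). A_70_P006161 (EE862234) is another, with LPS levels from 0.99 to 3.37, MPLA levels from 0.08 to 0.95 and 2 of 6 PBS arrays above background. Its difference was -1.81, or 3.51-fold lower after MPLA (limma adjusted p = 0.193), and it ranged from -0.03 in animal 170 to -2.87 in 65Y. Without animal 170 it was -2.17 and passed (limma adjusted p = 0.0283). With the share of detected probes as a covariate, an alternative added after the data were seen, A_70_P031646, A_70_P017136 and A_70_P006161 passed as well. Each of these 3 had a limma adjusted p of 0.0353 there, and 1 higher probe, A_70_P026211, also passed. The remaining lower probes of the first 10 were A_70_P056276 (-1.28), A_70_P059661 and A_70_P059662, which share the identifier DQ239634 (-0.89 and -0.71), A_70_P012491 (-0.85) and A_70_P072021 (-1.16, detected on 3 of 6 MPLA arrays).

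Over all tested probes, 83 (2.02%) were lower in all 6 animals and 35 (0.854%) were higher in all 6. Leaving out animal 20 raised the number of called probes from 2 to 17, with 9 lower and 8 higher after MPLA. In 14 of these 17, animal 20 had the opposite sign or under 0.25 of the size of the other 5 animals, and none of the 17 had a gene symbol. Leaving out animal 170 gave 3 called probes, all lower after MPLA.

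**Figure D3:**
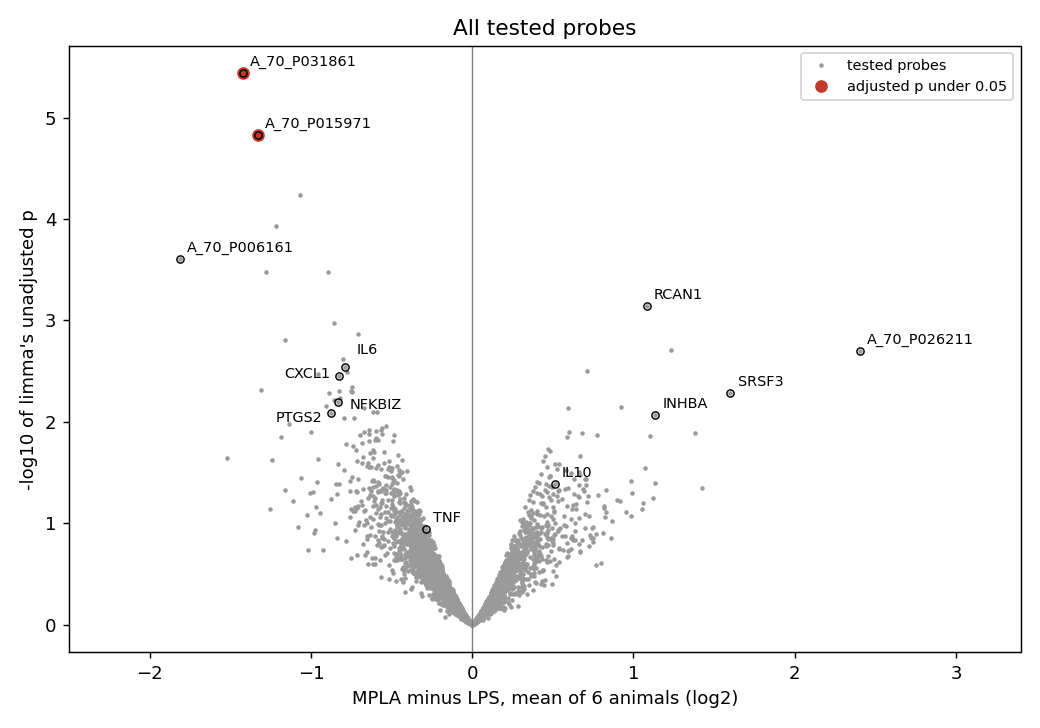
Mean MPLA minus LPS difference over 6 animals (log2, horizontal axis) against -log10 of limma's unadjusted p (vertical axis) for the 4099 tested probes, with the 2 called probes in red and selected named probes ringed. The 2 red points, at -1.42 and -1.33, lie above all others.

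The gene with the clearest higher level after MPLA was RCAN1, a feedback inhibitor of the phosphatase calcineurin. Its levels ran from 1.03 to 3.09 after PBS, from 2.51 to 3.84 after LPS and from 2.86 to 5.15 after MPLA, with medians of 1.93, 2.84 and 4.24. All 6 animals were higher after MPLA than after LPS, by 0.35 in animal 80 up to 1.998 in animal 20. The mean difference was 1.08 (95% interval 0.58 to 1.59), or 2.12-fold, and missed the threshold (limma adjusted p = 0.373). SRSF3, a splicing factor, had a mean difference of 1.60 (limma adjusted p = 0.819), made by 4 animals at 1.49 to 3.89 while animals 20 and 170 stood at -0.02 and 0.04. It was tested because all 6 MPLA arrays passed background, against 5 of the LPS arrays, and the value of 3.89 in 65Y rests on an LPS spot at the lowest signal of its array. INHBA, which encodes a subunit of activin, had a difference of 1.14 (95% interval 0.36 to 1.91, limma adjusted p = 0.820). It entered the test through its 6 MPLA arrays, since 3 of the LPS arrays did not pass background and that of 51Y was at its array's lowest signal, so the size of the difference rests partly on background values.

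Other genes on the higher side were smaller in size. CIB1, a calcium-binding protein, was higher in 6 of 6 animals (0.48), and RBM5, an RNA-binding splicing regulator, in 5 of 6 (0.40). LOC443162 had 2 probes at 0.71 and 0.69. For 3 of the first 10 higher genes the probe that ranked was not the brightest one, and the probes gave unlike values: RTP4, a receptor transporter induced by interferon, had 0.78 on one probe and 0.25 on the brighter one, the iron store subunit FTH1 had 0.53 on one probe and 0.08 on the brightest, and the protease CAPN2 had 0.53 on one probe and 0.01 on the brighter one. The unnamed probe A_70_P026211 had the largest mean difference of the named items, 2.40 (limma adjusted p = 0.627), with single animals from 0.85 to 5.68 and 5 of 6 LPS arrays above background. It passed under median scaling and with the share of detected probes as a covariate. Its PBS median of 3.01 lay above its LPS median of 0.38 and its MPLA median of 2.23. The other higher probes of the first 10 without a symbol (A_70_P065101, A_70_P035601, A_70_P033096, A_70_P064926, A_70_P003061 and A_70_P016561) had differences between 0.60 and 1.23. Of these, A_70_P065101 passed background on 4 and A_70_P064926 on 5 of the LPS arrays, so their differences also rest partly on background values.

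Inflammatory cytokines showed no common direction. Of 27 listed, 14 were on the array under a symbol and 7 were tested; 3 were lower and 4 higher after MPLA, with a median difference of 0.08 beside -0.09 over all tested probes and 64.1% of all tested probes below 0. Of the 4 higher ones, INHBA and CSF2 passed the filter only through their MPLA arrays. With the filter on all 12 arrays, 3 of 5 were lower and the median was -0.16. Without animal 71Y or 65Y the median of the 7 was -0.05. None was called, and at an unadjusted p under 0.05 IL6 was lower and INHBA, detected on only part of the LPS arrays, higher. IL6, a pyrogenic and acute-phase cytokine, passed background on no PBS array. Its LPS levels ran from 0.24 to 1.94 (median 1.47) and its MPLA levels from -0.35 to 1.60 (median 0.48). Each animal was lower after MPLA, by -0.25 in animal 170 to -1.32 in animal 80, although the groups overlapped. The mean difference was -0.79 (95% interval -1.23 to -0.34), or 1.73-fold lower, with a limma adjusted p of 0.766.

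TNF, the early cytokine that starts much of the response, differed less. Its levels ran from 4.86 to 5.26 after PBS, from 6.10 to 6.77 after LPS and from 5.79 to 6.66 after MPLA. The agonist arrays stood clear of the PBS arrays and overlapped each other. All 6 animals were lower after MPLA, with a mean of -0.29 (95% interval -0.66 to 0.08, limma adjusted p = 0.820), which turned to 0.27 under normexp. For IL1B and IL1A, the pair of interleukin-1 cytokines, the mean differences were 0.08 (95% interval -0.63 to 0.79) and 0.29 (95% interval -0.66 to 1.25). In both, the other 4 animals were higher after MPLA while animals 20 and 170 were lower, at -1.64 and -0.45 for IL1B and -1.91 and -0.81 for IL1A. That split matches the sign of the difference in detected probes, and its part in these values was not tested.

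CSF2, the growth factor for granulocytes and macrophages, was on no PBS array, 4 of 6 LPS arrays and 6 of 6 MPLA arrays above background. Its difference was 0.66 (95% interval -0.02 to 1.34, limma adjusted p = 0.820), with 4 animals higher and animal 80 the highest at 2.32. IL18, a cytokine kept as a precursor in resting cells, stood at -0.16 (95% interval -0.76 to 0.44). Listed cytokines on the array that did not pass the filter were IL2, IL4, IL12A, IL12B, IL13, IL15 and VEGFA.

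No chemokine was called. Of 27 listed, 6 were on the array and 5 were tested, with 3 lower and 2 higher, a median difference of -0.49 and 3 lower at an unadjusted p under 0.05. Over all tested probes, 64.1% were lower, 3.34% were lower at an unadjusted p under 0.05, and the median was -0.09. CXCL1, which attracts neutrophils, ran from 2.52 to 3.36 after PBS, from 5.08 to 6.46 after LPS and from 4.61 to 5.36 after MPLA. Each animal was lower after MPLA, by -0.18 in 65Y to -1.72 in animal 20. The mean difference was -0.82 (95% interval -1.31 to -0.34), or 1.77-fold lower (limma adjusted p = 0.766), and a second probe gave -0.80. With the share of detected probes as a covariate CXCL1 stood at -0.92 (limma adjusted p = 0.151).

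CXCL8, the other neutrophil attractant tested, ran from 6.87 to 10.23 after PBS, from 9.41 to 10.51 after LPS and from 8.68 to 9.72 after MPLA. All 6 animals were lower after MPLA, with a mean of -0.58 (95% interval -1.03 to -0.14, limma adjusted p = 0.820). A second CXCL8 probe, without a value in animal 170 because of flagged spots, gave -0.89 in the 5 other animals. XCL1, a chemokine of lymphocytes, had -0.49 on its brighter probe and -0.28 on the other. CXCL16 (0.19, 95% interval -0.99 to 1.38) and CCL25 (0.07, 95% interval -0.54 to 0.69) had wide intervals, and in both animal 20 was the lowest, at -3.03 and -1.46. They passed background on 4 and 5 of the 6 MPLA arrays, and animal 20 had the lowest MPLA levels, at -2.32 and -2.69. These differences therefore rest partly on background values. CXCL12 was on the array and not tested.

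Among the feedback regulators, NFKBIZ and IL10 lay on opposite sides. Of 34 listed, 7 were on the array and 5 were tested, with 4 lower and 1 higher, beside 64.1% of all tested probes lower. The median difference was -0.09, the same as over all tested probes. At an unadjusted p under 0.05, 1 was lower and 1 higher, beside 3.34% and 1.39% of all tested probes. NFKBIZ encodes a nuclear IkappaB protein that helps NF-kappaB switch on secondary genes such as IL6. It ran from 0.40 to 2.12 after PBS, from 3.31 to 4.57 after LPS and from 2.38 to 4.31 after MPLA. Its mean difference was -0.83 (95% interval -1.37 to -0.29), or 1.78-fold lower (limma adjusted p = 0.820). The 4 animals 71Y, 51Y, 80 and 65Y lay between -0.77 and -1.47, whereas animals 20 and 170 stood at -0.04 and -0.05.

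IL10, the main anti-inflammatory cytokine of myeloid cells, pointed the other way. It ran from 0.81 to 1.91 after PBS, from 4.03 to 5.56 after LPS and from 4.18 to 6.87 after MPLA. It was higher after MPLA in 5 of 6 animals and -0.01 in 51Y, and animals 20 and 80 made the largest share, at 1.30 and 1.06. The mean difference was 0.51 (95% interval 0.03 to 1.00, limma adjusted p = 0.820), and a second probe, without a value in 71Y, gave 0.67. TSC22D3, a glucocorticoid-induced leucine zipper protein, stood at -0.37 (95% interval -0.93 to 0.20). PPARG, a nuclear receptor that restrains inflammatory genes, stood at -0.09 (95% interval -0.59 to 0.40), and ZFP36, which destabilises cytokine transcripts, at -0.03 (95% interval -0.43 to 0.37). NFKBIA, above background on 5 of 6 arrays of each agonist, and TGFB1 were not tested.

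The 4 tested enzymes and effectors, of 9 on the array and 26 listed, were all lower after MPLA in the mean, beside 64.1% of all tested probes, with a median of -0.40. PTGS2 and SERPINB2 were lower at an unadjusted p under 0.05, as were 3.34% of all tested probes, and the sign of SOD2 and KYNU turned when 1 animal was left out. PTGS2, the inducible cyclooxygenase of prostaglandin synthesis, ran from 1.07 to 4.38 after PBS, from 5.23 to 5.81 after LPS and from 3.62 to 5.70 after MPLA. It was lower after MPLA in 5 animals, by -0.58 to -1.87, and higher by 0.40 in animal 20. The mean was -0.88 (95% interval -1.47 to -0.28), or 1.83-fold lower (limma adjusted p = 0.820). SERPINB2, an inhibitor of urokinase, stood at -0.60 (95% interval -1.17 to -0.02) with 4 animals lower. SOD2, the mitochondrial superoxide dismutase, stood at -0.20 and was higher in 4 of 6 animals, so that animal 20 alone, at -1.86, set the sign; without it the difference was 0.13. KYNU, an enzyme of tryptophan breakdown, stood at -0.12 (95% interval -0.71 to 0.46). PLAU, PLAUR, PTGS1 and PTX3 were on the array and not tested.

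Of the early transcription factors, MYC, a driver of growth and metabolism, was lower after MPLA in all 6 animals on its brighter probe, with -0.62 (95% interval -1.11 to -0.12, limma adjusted p = 0.820), and in 5 of 6 on the other, with -0.49. BTG2, an antiproliferative early gene, stood at -0.20 and the factor ETS2 at 0.11, and in both animal 20 was the highest, at 0.65 and 1.12. FOS and EGR1 were on the array and not tested.

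**Figure D4:**
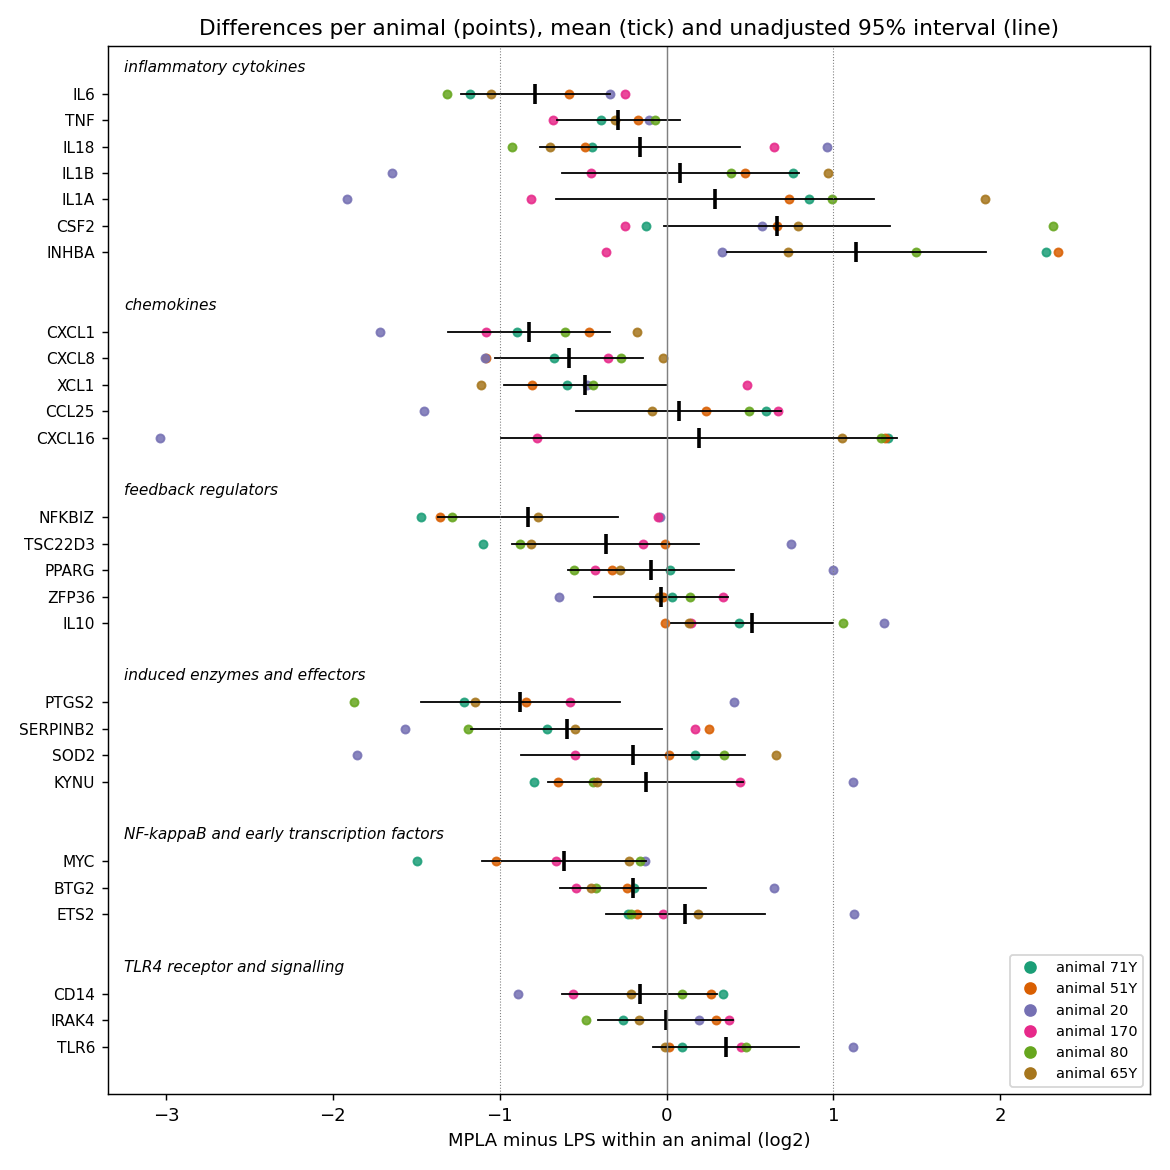
MPLA minus LPS (log2) of the tested genes of 6 lists, with a coloured point for each of the 6 animals, a tick for the mean and a line for the unadjusted 95% interval; dotted lines mark 2-fold. All 6 points of IL6, TNF, CXCL1, CXCL8, NFKBIZ and MYC lie left of 0, and in IL1A, IL1B and CXCL16 the points of animals 20 and 170 lie left while the others lie right.

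Genes of the interferon branch gave values on both sides. Of 54 listed, 12 were on the array and 5 were tested, with 2 lower and 3 higher and a median of 0.02. Over all tested probes, 64.1% were lower and the median was -0.09. ISG15, a ubiquitin-like protein induced by interferon, ran from 2.92 to 5.57 after PBS, from 3.65 to 5.52 after LPS and from 2.85 to 5.42 after MPLA, so that the 3 groups overlapped. It was lower after MPLA than after LPS in all 6 animals, with a mean of -0.62 (95% interval -1.03 to -0.20, limma adjusted p = 0.820). The antiviral GTPase MX1 (0.06), PARP14 (0.02) and the regulator IRF2 (-0.07) had intervals that crossed 0. IFNG, IRF1, IRF3, MX2, CXCL10, PSMB8 and TAP1 were on the array and not tested, so the branch was seen through few genes.

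The receptor pathway itself was hardly measured. Of 47 listed genes 13 were on the array and 3 were tested. CD14, the co-receptor that hands LPS to TLR4, stood at -0.16 (95% interval -0.62 to 0.30), the kinase IRAK4 at -0.01 (95% interval -0.41 to 0.40), and TLR6, a partner of TLR2, at 0.36 (95% interval -0.08 to 0.79) and 0.50 on a second probe. All 3 intervals lay within 2-fold. TLR4 was well above background on 1 array of each agonist and MYD88 on none, and neither was tested; nor were AKT1 and TLR1, TLR2, TLR3, TLR5, TLR7, TLR8 and TLR9. Of the surface receptors, the 6 tested (CLEC4E, CD86 without a value in animal 71Y, ITGB2, FCGR2B, IFNAR1 and IFNAR2) lay between -0.24 and 0.24 and had intervals within 2-fold. CLEC4E, a lectin receptor of myeloid cells, was -0.20 on its brighter probe and -0.04 on the other. Genes of antigen presentation (CTSS, CD1D and TAP2), cell death (FAS) and stress (HSPA5, TXN and GPX1) also had intervals within 2-fold on their brightest probes, between -0.35 and 0.29. A second CD1D probe stood at 0.51 (95% interval -0.18 to 1.19), opposite in sign to the brighter one at -0.15.

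Other named genes of the first 10 on the lower side were LOC101104661 (-0.56), the ubiquitin ligase RBBP6 (-0.67) and the splicing-associated protein PNN (-0.44). LOC101104661 passed background on 5 PBS arrays and ran from -2.13 to 0.39 there, from 4.69 to 5.88 after LPS and from 4.14 to 5.45 after MPLA. Both agonists thus stood far above PBS and differed little from each other: 5 animals were lower after MPLA, by -0.54 to -0.93, and animal 20 stood at 0.13.

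No cell type marker was called. CD3D (0.06), CD3E (0.10), GNLY (-0.19), CD14 (-0.16), LYZ (-0.07) and HBB (-0.32) all had intervals within 2-fold, and single animals ran from -1.05 to 0.24 for HBB and from -0.84 to 0.54 for GNLY. The housekeeping genes GAPDH (without a value in animal 170) and TUBB stood at 0.27 and 0.21. In whole blood, fewer cells of a type and less RNA per cell cannot be told apart. The part of cell composition in the results was not tested.

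The agonists were then compared on the probes that both together changed against PBS, chosen on all 18 arrays by the mean of LPS and MPLA minus PBS, a contrast that does not use the difference between them. By limma at an adjusted p under 0.05, 38 probes rose (0.927% of those tested) and 9 fell (0.22%). Among the 38 that rose, 23 were lower and 15 higher after MPLA, with a median difference of -0.13; 10 were lower and 3 higher at an unadjusted p under 0.05, and 8 were lower and 1 higher in all 6 animals. Over all tested probes 64.1% were lower and the median was -0.09, so neither the count of lower probes nor the median sets these 38 apart, while the shares at an unadjusted p under 0.05 were 3.34% and 1.39% and those of one sign in all 6 animals 2.02% and 0.854%. The 38 included IL6, TNF, IL1A, IL1B, CSF2, IL10, CXCL1, CXCL16, NFKBIZ, PTGS2, SOD2, SERPINB2, CLEC4E, ETS2, RCAN1, SNX10 and LOC101104661. The largest rise was near equal: probe A_70_P003541 (EU366476) stood 5.79 above PBS after LPS and 5.74 after MPLA. A_70_P019681 (EE866720), on no PBS array above background, had mean levels of 1.94 after LPS and 1.96 after MPLA. Of the 38 intervals, 22 lay within 2-fold. The median over the same 38 probes turned to 0.17 under normexp and to 0.067 under median scaling.

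All 9 probes that fell against PBS were lower after MPLA than after LPS, beside 64.1% of all tested probes, with a median difference of -0.71. The median was below 0 in each of the 6 animals, from -0.15 in animal 20 to -0.88 in 71Y. The 9 probes carry 8 identifiers, and PPARG was the only one with a symbol. For 6 of the 9, all 6 animals were lower, and under median scaling PPARG turned to 0.10. The median over the same 9 probes was -0.51 under median scaling and -0.23 under normexp. A_70_P056276 stood 0.60 below PBS after LPS (-0.60) and 1.88 below after MPLA (-1.88). A_70_P017136 stood at -0.88 after LPS and -2.10 after MPLA, and A_70_P026731 (TC52473) at -0.54 and -1.23. At the other end, A_70_P059676 (TC52643) stood at -0.90 and -1.13, and PPARG at -1.11 and -1.20. The set included the called A_70_P031861, at 0.09 after LPS and -1.33 after MPLA. With so few probes, and PBS arrays shared by both changes, these values describe the set and carry no test.

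Between probes of one gene the differences were close. Of 65 genes with several tested probes, 58 had probes of one sign, and the median gap between the highest and lowest probe of a gene was 0.10. By slide, A_70_P031861 stood at -1.38 on the first (1 animal), -1.35 on the second (2 animals) and -1.49 on the third (2 animals). A_70_P015971 stood at -1.33, -1.34 and -1.48. In animal 170, whose arrays lay on different slides, the probes stood at -1.47 and -0.99. The probes were called on these same animals for differences that varied little, so the values by slide are no separate check.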

How the data were processed

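Per the labels, the authors scanned 1-colour sheep arrays with Agilent Feature Extraction 11.5.1.1 and deposited each array's background-subtracted intensity (processed signal), used here. A deposited table by the authors holds ratios of each signal to a number near the array's 75th percentile and served as an alternative. Spots flagged as outliers were left out (122 missing values), repeat spots were averaged per probe, and the array's 75th percentile was subtracted on the log2 scale. Symbols came from RefSeq accessions (ARS-UI_Ramb_v3.0, names only; 1265 of 2200 probes with an accession matched) and 7 from the study's table. Two-sided tests by limma 3.58.1 (R 4.3.3; lmFit, eBayes) compared the 12 arrays with animal as a fixed block and Benjamini-Hochberg adjustment over 4099 probes. The animals in the titles pair the arrays; deviations of the same animal from the group means correlated at 0.31 to 0.81. Intervals are unadjusted. Named were the called probes, the 10 probes and 10 genes of smallest p per direction with 12 values, and tested genes of the lists; a gene stands by its brightest tested probe. The members and lists were chosen with earlier results of these data known. Scripts were tested on simulated data. Some listed genes are not reported here.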

Additional observations from a re-analysis of the deposited data

Results flagged for a closer look

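In 7 of 65 sets of 6 values examined (differences of the named probes and array measures), 1 animal stood apart from the other 5 by Dixon's criterion, where chance sets apart about 1 in 20; in all 7 it was animal 20. Its MPLA minus LPS difference was -1.36 for A_70_P059661 (others -0.88 to -0.70), -0.43 for A_70_P016561 (others 0.66 to 1.17), 0.13 for LOC101104661 (others -0.93 to -0.54), 0.65 for BTG2 (others -0.54 to -0.20), 1.12 for ETS2 (others -0.23 to 0.19), 0.99 for PPARG (others -0.55 to 0.02) and -1.46 for CCL25 (others -0.09 to 0.67). For LOC101104661, BTG2, ETS2, PPARG, CCL25 and A_70_P016561 animal 20 had the sign opposite to the mean of the other 5. The 2 called probes were not among them: animal 20 stood at -1.43 for A_70_P031861 and at -1.14 for A_70_P015971, within the range of the other animals. CCL25 passed background on 5 of 6 MPLA arrays, so its value rests partly on background. The cause of the 7 values was not tested.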

How the results depend on the processing

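The 2 calls were also 2 under the 75th percentile over detected probes, quantile normalization, the authors' table, flagged spots kept and floored values. The count was 3 with the filter on all 12 arrays, the slide as a block, all 18 arrays in the fit (where A_70_P015971 was lost), or a trended robust prior. Only animal 170 spans slides, so the slide block gave the same result as leaving out animal 170 and is no separate check. The count was 1 under median scaling (higher with MPLA, A_70_P026211) and with the filter of 4 of 6 arrays, and 0 under normexp and with no filter. With the share of detected probes as a covariate, chosen after seeing the data, it was 6, with 5 lower and 1 higher after MPLA. Without the replicate block, the unpaired fit called 0 (53 at an unadjusted p under 0.05, beside 194 paired). The methods' t-test gave 54 probes at its own threshold and 1 after Benjamini-Hochberg. Leaving out each animal gave 0 to 17 calls, 0 without 71Y, 51Y, 80 or 65Y and 17 without animal 20. The share of intervals within 1.5-fold was 47.9% with detected probes in the scaling, 0% under median scaling, 1.85% with no filter, 12.2% without the block, 50.2% with the covariate and 14.4% to 24.6% with an animal left out. With the probes chosen anew under each setting, the median of those that rose against PBS was -0.0057 under median scaling (41 probes), 0.048 under normexp (20 probes) and -0.31 to -0.14 with an animal left out; that of the probes that fell was -1.02 under median scaling (3 probes), -0.38 under normexp (2 probes), -0.23 with no filter (5 probes) and -0.75 to -0.46 with an animal left out. Over the 38 and 9 probes of the report the medians were 0.067 and -0.51 under median scaling, 0.17 and -0.23 under normexp and -0.13 and -0.71 with no filter. Median scaling and normexp moved the median of all probes from -0.09 to 0.11 and 0.20. The cause of these changes was not tested.

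Of 57 named differences 39 kept their sign under every alternative run. Of the 18 others, under normexp the sign turned for TNF (0.27), TSC22D3 (0.045), RTP4 (-0.035), CLEC4E (0.26), BTG2 (0.35), CD14 (0.13), SOD2 (0.28), KYNU (0.23), ZFP36 (0.46) and IRAK4 (0.021). Under median scaling it turned for CD14 (0.036), IL18 (0.039), KYNU (0.073), PPARG (0.10), ZFP36 (0.16) and IRAK4 (0.19), with detected probes in the scaling for ZFP36 (0.0203) and IRAK4 (0.047), under quantile normalization for ZFP36 (0.048), and with the slide block for CCL25 (-0.044). With the covariate it turned for CXCL16 (-0.092), IL1B (-0.075), CAPN2 (-0.050) and IRAK4 (0.0100). With an animal left out, the difference ran from -0.030 to 0.73 for IL1A, -0.37 to 0.13 for SOD2, -0.091 to 0.18 for ETS2, -0.37 to 0.00957 for KYNU, -0.033 to 0.84 for CXCL16, -0.044 to 0.38 for CCL25, -0.10 to 0.43 for IL1B, -0.11 to 0.089 for ZFP36, -0.079 to 0.18 for CAPN2 and -0.082 to 0.089 for IRAK4.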
